A study of Homo sapiens with 240 samples.

Results

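Untreated HEK 293T cells, an established human line of embryonic kidney origin, were compared between 2 arms that differ in the form of FNIP1 they carry. Both arms began as FNIP1 knockout cells and were reconstituted with a FNIP1 cDNA. The WT FNIP1 arm received the wild-type sequence, and the SA5 FNIP1 arm a sequence in which all 5 residues phosphorylated by AMPK were replaced by alanine. Untreated means given DMSO, the vehicle, and labelled 0 h. The comparison holds 5 of the 240 libraries of the series: SA5 replicates 2 and 3 and WT replicates 1 to 3. SA5 replicate 1 was left out because it stands apart from every other library of the experiment. A further 24 libraries, 12 of each arm, came from the same 2 cell populations after 2, 4, 8 or 16 h of the AMPK activator 991. These were not used to call genes under DMSO and served to ask whether the differences persisted. A call with the same sign in them was required of the genes farthest apart that are described singly. It was also required of the list members whose TPM values are given, the folliculin list and CHAC1 apart. In both sets SA5 replicates 2 and 3 also had to lie outside the WT range under DMSO, so separation of the arms follows in large part from the choice. The labels do not say whether an arm is a pool or 1 clone, how the cDNA was introduced or expressed, or whether replicates were separate cultures, so a p-value here speaks only to the spread among the libraries measured.

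FNIP1 binds folliculin (FLCN), and the pair acts on the lysosome surface as a GTPase-activating complex for the Rag GTPases RRAGC and RRAGD. The Rag GTPases, anchored by the Ragulator complex of LAMTOR proteins, bring mTORC1 to the lysosome and present the transcription factors TFEB and TFE3 to it for phosphorylation, which keeps these factors in the cytoplasm. AMPK, a kinase activated when cellular energy falls, phosphorylates FNIP1, and loss of FLCN or FNIP1 function is known for nuclear TFEB and TFE3 and for raised lysosomal gene expression. The SA5 form cannot receive these phosphates, so the comparison under DMSO asks what the 2 arms look like before AMPK is activated by the drug.

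All values are TPM, a transcript abundance scaled for transcript length and library, and every difference is SA5 less WT on the log2(TPM + 1) scale, which understates the difference of genes near or under 1 TPM. A gene was called when its limma adjusted p was under 0.05. SA5 replicate 1 under DMSO had a median correlation with the other libraries of 0.927, where the other DMSO libraries stood at 0.992, and its deviation from its group fell with transcript length (rho = -0.55 across genes). SA5 replicate 1 at 8 h of 991 was the next lowest library, at 0.979 (rho = -0.63), and the 2 deviations were alike (r = 0.88 across 12353 genes, which are not independent). Counts of called genes over the 991 times are therefore given with and without the 8 h library. Depth per library is unknown, because TPM keep no read counts. Of 10 markers of the HEK line, 7 reached 1 TPM in SA5 and 8 in WT libraries, with summed levels of 375 to 378 against 443 to 461 TPM. Of 11 markers of differentiated kidney only LRP2 and PODXL reached 1 TPM. Of 20 markers of blood, endothelial, stromal and epithelial cells, 3 reached 1 TPM in SA5 (CD68, COL1A1 and ACTA2) and 4 in WT libraries, summing to 11.3 to 12.5 against 14.5 to 16.4 TPM, and 8 of the 20 were at 0 in both SA5 libraries and 5 in all WT libraries. In bulk RNA, fewer cells of a type and less RNA per cell cannot be told apart, and the part of these marker levels in the results was not tested.

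FNIP1 RNA was lower in SA5 than in WT cells, and FLCN RNA was high and alike in both. FNIP1 (GRCh38 chr5:131677597-131797063) stood at 179 and 172 TPM in SA5 replicates 2 and 3, and at 241, 236 and 221 TPM in the WT libraries. The 2 SA5 libraries lay below all 3 WT libraries, and the mean was 1.33-fold higher in WT (difference -0.40 ± 0.04, standard error; limma adjusted p = 0.00272). The left-out SA5 replicate 1 held 5.47 TPM. Under 991 the SA5 libraries ranged from 164 to 195 TPM without the 8 h replicate 1 (45.05 TPM) and the WT libraries from 230 to 271 TPM, with no overlap. FLCN (chr17:17221171-17237188) stood at 1017 and 1016 TPM in SA5 and at 1012, 995 and 913 TPM in WT cells (0.06 ± 0.04, limma adjusted p = 0.374), and at 26.9 TPM in the left-out library. Its 991 libraries overlapped, at 862 to 1088 TPM in SA5, without the 8 h replicate 1 at 426 TPM, against 831 to 1083 TPM in WT. The deposited table lists a transcript of 1752 bases for FNIP1 and of 1731 bases for FLCN, and the values do not tell RNA of an introduced cDNA from that of the genomic locus. Other control cells of the series under DMSO, from tables normalized separately, had FNIP1 at 211 ± 9.72 TPM (SD, n = 3) in the ESRRA WT group and at 138 ± 4.38 TPM (n = 3) in the control siRNA group for the same listed transcripts. FLCN there stood at 1012 ± 28.6 and 967 ± 51.2 TPM (n = 3 each). The WT groups of the AMPK and of the TFEB and TFE3 tables, where another transcript is listed, had FNIP1 at 2.79 ± 0.167 and 4.06 ± 0.0342 TPM and FLCN at 5.81 ± 0.271 and 7.31 ± 0.195 TPM (n = 3 each).

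**Figure D1:**
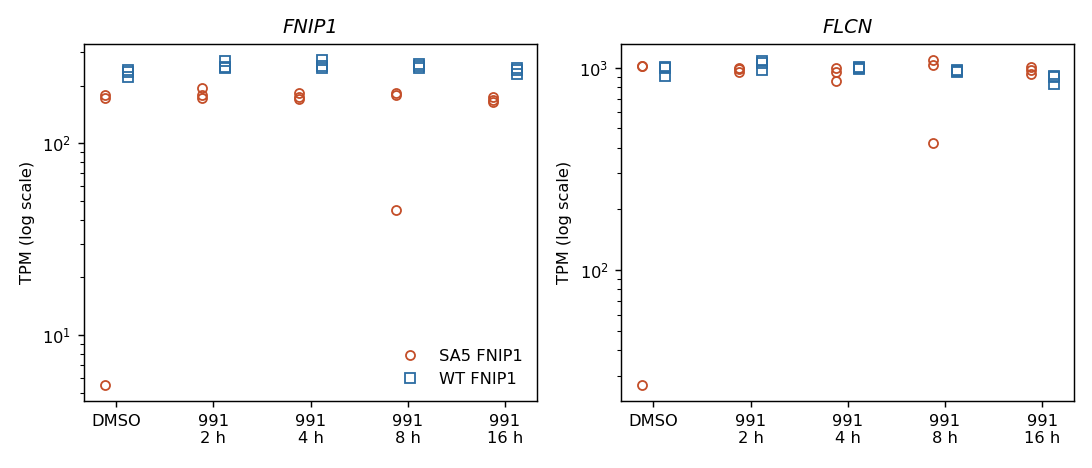
FNIP1 and FLCN in each library, in TPM on a log axis, by treatment (SA5 FNIP1 circles, WT FNIP1 squares, 3 libraries per group). FNIP1 is lower in SA5 at every point, FLCN overlaps, and the left-out DMSO library (5.47 and 26.9 TPM) and the 8 h replicate 1 (45.05 and 426 TPM) lie far below the rest.

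The other genes of the folliculin and Rag machinery differed little. Of 12 members of the list of folliculin, Rag GTPases and Ragulator, FNIP1 was the only one called under DMSO (1 lower, 0 higher), where 6.90% of all genes were called lower. Below 0 lay 10 of 12, as did 8122 of all 12353 genes, with a median of -0.11 against -0.06 for all genes. FNIP2, the second FLCN partner, stood at 3.70 and 3.77 TPM in SA5 against 4.81, 4.11 and 4.33 TPM in WT (limma adjusted p = 0.182). RRAGA missed the threshold at 69.02 and 70.7 against 75.6, 77.4 and 77.03 TPM (-0.13 ± 0.04, limma adjusted p = 0.0532). RRAGC was at 16.5 and 14.9 against 17.02, 18.4 and 16.8 TPM and RRAGD at 3.90 and 3.72 against 4.31, 4.49 and 5.10 TPM (limma adjusted p = 0.202 and 0.137). In all 4 genes both SA5 libraries lay below every WT library, but none was called, and the share of all genes separated in this way is not given here. LAMTOR1 to LAMTOR5, the Ragulator subunits, had differences between -0.09 and 0.10 and adjusted p of 0.264 to 0.865. Over the 24 libraries given 991, 6 of the 12 were called lower and 0 higher (28.9% and 10.4% of all genes). The 6 were FNIP1, FNIP2, RRAGA, RRAGB, RRAGC and RRAGD, from -0.67 for FNIP1 to -0.06 for RRAGA. The FNIP1 value includes the 8 h replicate 1 of SA5, at 45.05 TPM where the other SA5 libraries given 991 held 164 to 195 TPM. Its size is therefore not set against that under DMSO. Without the 8 h replicate 1 of SA5, 7 were lower and 1 higher (35.5% and 14.5% of all genes).

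Across the transcriptome, 1170 of 12353 genes tested were called between SA5 and WT cells under DMSO (9.47%), 318 higher in SA5 (2.57%) and 852 lower (6.90%). Most differences were small: the median size of the called differences was 0.29, and 37 reached 1 on the log2 scale, 13 higher and 24 lower. The count rests on few libraries. It was 163 without SA5 replicate 2, 134 without SA5 replicate 3, and 413, 406 and 641 without WT replicates 1, 2 and 3, where a lone SA5 library is assumed to vary like the WT libraries. With all 3 SA5 libraries only NTS and TNMD were called (337 genes at an unadjusted p under 0.05). The split between higher and lower also follows the scaling, since the median of all genes was -0.06: after median-ratio scaling 504 genes were higher and 381 lower, after quantile normalization 313 and 365, and after removal of each library's trend with transcript length 512 and 418.

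The 12 lowest and 12 highest genes by difference, among those also called with the same sign over the 991 times, are described here. Only genes whose SA5 replicates 2 and 3 lay outside the WT range under DMSO were taken, so non-overlap there follows from the choice. Antisense, LOC, microRNA, snoRNA, LINC and open reading frame entries were passed over. NTS, which encodes the neuropeptide neurotensin, was listed at 0.281 and 0.266 TPM in SA5 and at 30.9, 34.1 and 34.1 TPM in WT libraries. This was the largest difference among the 24, a 121-fold lower mean in SA5 (-4.74 ± 0.07, limma adjusted p = 2.07e-08). TNMD, a tendon membrane protein gene, was at 1.03 and 1.65 against 20.99, 19.6 and 23.2 TPM (-3.26 ± 0.12, adjusted p = 1.0e-05). In both genes the arms were far apart in every library, and the left-out SA5 library sided with SA5 (0.551 and 1.14 TPM).

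The values of other lower genes follow. SLC7A8, a neutral amino acid transporter gene, was at 4.98 and 4.70 against 18.2, 17.2 and 17.6 TPM (-1.68 ± 0.06). ATP1B2, a sodium pump subunit gene, was at 7.58 and 6.68 against 26.9, 22.8 and 22.8 TPM (-1.63 ± 0.09). HAS2, which makes hyaluronan, was at 0.435 and 0.258 against 2.51, 2.46 and 2.59 TPM (-1.39 ± 0.11). In each of these the SA5 libraries were below all WT libraries by at least the spread within either arm, with limma adjusted p of 1.0e-05 to 0.000832. The golgin gene GOLGA3 (-1.10), the adhesion protein gene MXRA8 (-1.07), the F-box gene FBXL16 (-1.06), the nuclear protein gene AFF2 (-1.11), the pseudogene WFDC21P (-1.76) and the hair protein gene KRTAP19-1 (-1.25) were also among the 12. AFF2 was near silent in SA5 cells, at 0.099 and 0.089 against 1.48, 1.39 and 1.22 TPM.

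Among the 12 higher genes, MGST1 and OXCT1 had the largest differences. MGST1, a microsomal glutathione transferase gene, was at 6.48 and 5.95 TPM in SA5 against 0.876, 0.626 and 0.512 TPM in WT (9.26-fold; 2.12 ± 0.12, limma adjusted p = 0.000147). OXCT1, whose enzyme activates ketone bodies for oxidation, was at 7.44 and 6.88 against 1.85, 2.07 and 1.55 TPM (1.53 ± 0.10, adjusted p = 0.000345). PLIN2, which coats lipid droplets, was at 7.52 and 5.74 against 2.48, 2.82 and 2.53 TPM (1.07 ± 0.11), and DECR1, an enzyme of unsaturated fatty acid oxidation, at 6.37 and 5.64 against 2.39, 3.03 and 3.29 TPM (0.85 ± 0.11). All 4 had both SA5 libraries above all WT libraries, as the choice required. WT1, a kidney developmental transcription factor gene, was at 1.91 and 1.65 against 0.298, 0.237 and 0.176 TPM (1.17 ± 0.12). The actin crosslinker gene FLNC (1.23), GIPC3 (1.22), HSBP1L1 (1.09), the cationic amino acid transporter gene SLC7A3 (1.05), the developmental regulator EYA1 (0.83) and the cancer-testis genes MAGEA1 (1.06) and MAGEA6 (0.96) complete the 12. MAGEA6 has near-identical copies, and how reads were divided among them is not given in the sources used here.

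Of the 24 genes, 6 lie on chromosome X, among them TNMD, AFF2, SLC7A3, MAGEA1 and MAGEA6. Chromosome X holds 417 of the 12353 genes tested, and the count was not tested. The 24 were chosen from genes called with the same sign under 991, so their separation there follows in large part from the choice: as a description, the ranges of the arms did not overlap in 23, EYA1 being the exception. Without SA5 replicate 2 the calls of KRTAP19-1, HSBP1L1, MAGEA1, SLC7A3, MAGEA6, DECR1 and EYA1 were lost, and without SA5 replicate 3 those of the same genes other than SLC7A3. The left-out SA5 library, which took no part in the choice, lay beyond the WT range on the SA5 side for 12 of the 12 lower and 10 of the 12 higher genes. Of all genes tested it lay beyond WT on the same side for 83.1% of those with a negative and 30.04% of those with a positive difference.

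**Figure D2:**
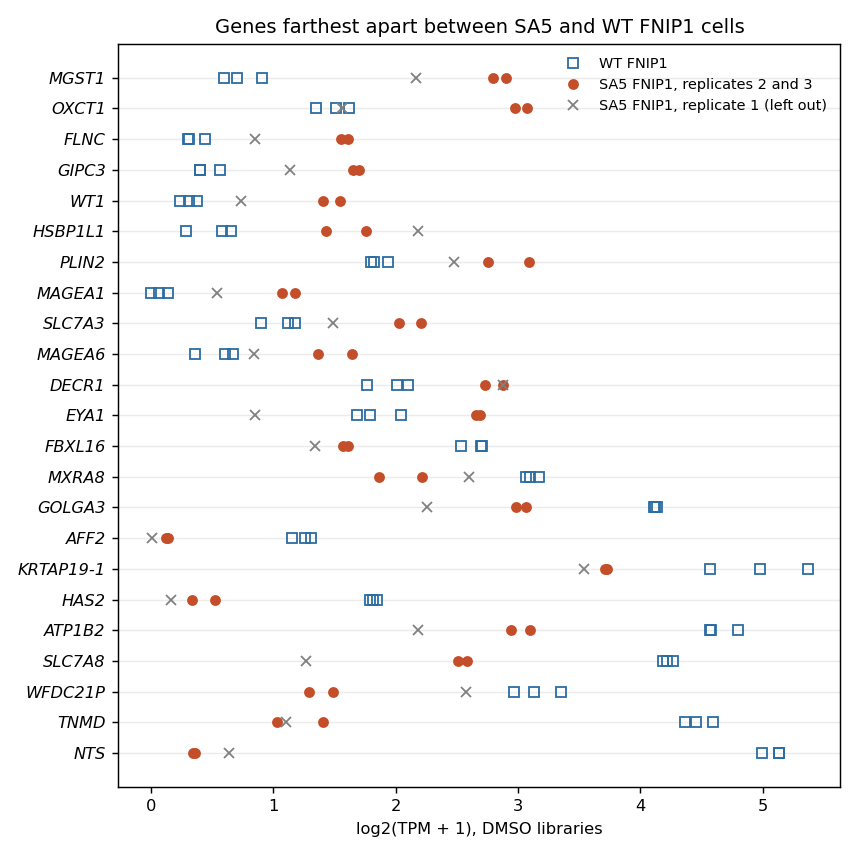
Level of 23 of the 24 genes in each DMSO library, as log2(TPM + 1), with WT libraries as open squares, SA5 replicates 2 and 3 as filled circles and the left-out SA5 replicate 1 as crosses. For each gene the filled circles do not overlap the squares, which was a condition of the choice, and NTS and TNMD show the widest gaps.

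Cholesterol synthesis genes were higher in SA5 cells where they were called. Of 26 members tested, 13 were called higher and 0 lower (2.57% of all genes were called higher), with a median difference of 0.22 against -0.06 for all genes. INSIG1, whose protein restrains sterol synthesis and is itself a target of the sterol-responsive factor SREBP, was at 46.04 and 42.999 TPM in SA5 against 31.3, 29.7 and 30.6 TPM in WT (1.46-fold; 0.53 ± 0.05, limma adjusted p = 0.00194). MSMO1, a sterol demethylation enzyme gene, was at 24.5 and 23.9 against 17.3, 18.1 and 16.6 TPM (0.46 ± 0.05, adjusted p = 0.00407). IDI1, the isopentenyl diphosphate isomerase gene, was at 51.2 and 48.9 against 35.8, 35.9 and 36.8 TPM (0.46 ± 0.04, adjusted p = 0.00196). In all 3 the arms did not overlap, as the choice required. SQLE (0.43), DHCR7 (0.40), FDFT1 (0.38), MVD (0.31), HMGCS1 (0.27), CYP51A1 (0.23) and SREBF2 (0.22) were among the other 10. Over the 991 times 17 members were called higher and 0 lower (10.4% of all genes were called higher), and 10 were called in both. Without the 8 h replicate 1 of SA5, 22 were higher and 1 lower (14.5% and 35.5% of all genes). The count was 13 or 14 under other scalings and after removal of the length trend, and fell to 5 without either SA5 library and to 8 without any 1 WT library.

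Immediate early genes, the first genes switched on by growth factors and stress, were lower where they were called, MYC apart. Of 20 tested, 10 were called lower and 1 higher (6.90% and 2.57% of all genes), 9 were not called, and the median was -0.31. FOS was at 2.36 and 3.03 against 4.46, 4.25 and 4.86 TPM (-0.59 ± 0.10, limma adjusted p = 0.0169), and FOSB at 1.49 and 2.18 against 3.23, 3.44 and 3.79 TPM (-0.67 ± 0.12, adjusted p = 0.0183). DUSP1, a phosphatase gene that limits MAP kinase signalling, was at 19.3 and 19.6 against 28.9, 27.6 and 27.9 TPM (-0.51 ± 0.05, adjusted p = 0.00192). Each lay below all WT libraries in both SA5 libraries, as the choice required. NR4A1 (-0.50), EGR1 (-0.48), KLF6 (-0.36), DUSP5 (-0.36), ATF3 (-0.33), IER5 (-0.32) and SPRY2 (-0.31) were the others called lower. MYC, the growth-promoting transcription factor gene, was higher, at 37.2 and 38.7 against 31.2, 31.2 and 30.1 TPM (0.29 ± 0.04, adjusted p = 0.0109). All 11 were called with the same sign over the 991 times, where the list held 3 higher and 14 lower members (10.4% and 28.9% of all genes), as it did without the 8 h replicate 1. Under DMSO the calls numbered 2 without SA5 replicate 2, 5 without SA5 replicate 3, and 8 or 9 under other scalings.

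Extracellular matrix and adhesion genes were lower where they were called. In the list of collagens, laminins, integrins and cadherins, 9 of 32 tested were called lower and 0 higher (6.90% of all genes were called lower), with a median of -0.11. COL5A2, a fibrillar collagen gene, was at 0.800 and 0.668 against 1.92, 1.66 and 1.94 TPM (-0.71 ± 0.11, limma adjusted p = 0.0114), and COL5A1 at 2.57 and 2.78 against 4.48, 4.47 and 3.84 TPM (-0.52 ± 0.09, adjusted p = 0.017). FN1, which encodes fibronectin, was at 8.47 and 8.33 against 11.7, 11.8 and 11.3 TPM (-0.42 ± 0.06, adjusted p = 0.00704). The arms did not overlap in these 3 genes, under DMSO or under 991 without the 8 h replicate 1. Their choice had used both sets of libraries, so this is a description. All 9 were called lower over the 991 times as well, where 22 of 32 were lower and 1 higher (28.9% of all genes were lower), or 24 and 2 without the 8 h replicate 1 (35.5% lower). The listed transcripts of this group are long, with a median of 5632 bases against 2700 for all genes, and 7 or 8 calls were made under other scalings and after removal of the length trend. No member was called without SA5 replicate 3.

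**Figure D3:**
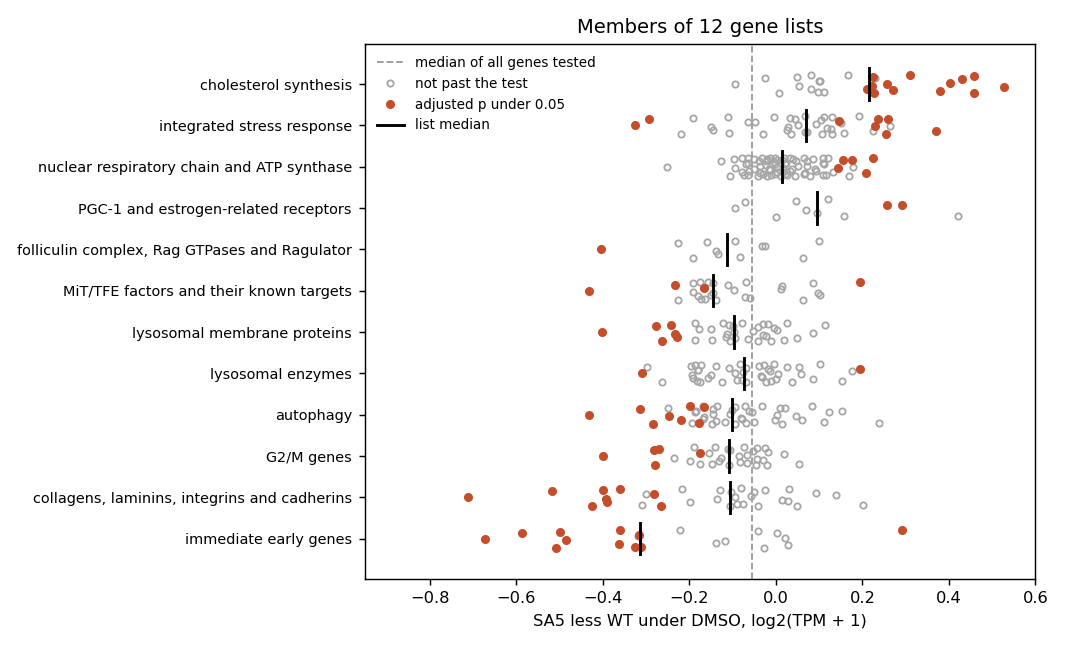
Difference of each tested member of 12 gene lists between SA5 replicates 2 and 3 and the WT libraries under DMSO, with called members filled, list medians as bars and the median of all genes (-0.06) as a dashed line. Called cholesterol genes lie to the right, and called immediate early, matrix and autophagy genes nearly all to the left.

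Lysosomal and autophagy genes, the known targets of TFEB and TFE3, were called in few cases under DMSO and then mostly lower in SA5. Of 28 MiT/TFE factors and targets, 3 were called lower and 1 higher, shares near those of all genes (6.90% lower, 2.57% higher), with a median of -0.14. WIPI1, an autophagosome formation gene, was at 5.00 and 4.87 TPM in SA5 against 6.88, 7.04 and 7.07 TPM in WT (-0.43 ± 0.06, limma adjusted p = 0.011). SQSTM1, the gene of the autophagy receptor p62, was at 48.9 and 50.2 against 54.8, 57.1 and 55.2 TPM (-0.17 ± 0.04, adjusted p = 0.0373). MCOLN1, which encodes the lysosomal calcium channel mucolipin 1, was at 8.59 and 8.33 against 9.98, 9.85 and 10.6 TPM (-0.23 ± 0.06, adjusted p = 0.0499718, just under the threshold). The arms did not overlap in these genes, as the choice required. GLA, the alpha-galactosidase gene, was higher, at 104 and 103 against 87.7, 90.1 and 93.4 TPM (0.19 ± 0.04, adjusted p = 0.0215). WIPI1 and GLA were still called after median-ratio scaling, quantile normalization and removal of the length trend, and SQSTM1 and MCOLN1 were not. None of the 4 was called without either SA5 library, and SQSTM1 and MCOLN1 were also not called without any 1 WT library.

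In the lists of lysosomal membrane proteins and autophagy, called genes were all lower: 6 of 36 and 8 of 45, where 6.90% of all genes were called lower. CD63, a lysosomal tetraspanin gene, was at 182 and 174 against 214, 213 and 213 TPM (-0.26 ± 0.03, limma adjusted p = 0.00519), and LAMP2 at 31.3 and 29.6 against 38.2, 36.9 and 36.3 TPM (-0.28 ± 0.05, adjusted p = 0.0153). ULK1, the kinase gene that starts autophagy, was at 8.43 and 8.17 against 10.5, 10.7 and 9.81 TPM (-0.28 ± 0.06, adjusted p = 0.0303). TMEM175, MCOLN1 and NPC2, whose protein is soluble in the lysosome lumen, were among the other genes called in the membrane list. WIPI1, OPTN, BECN1, NBR1, TAX1BP1, WDR45 and SQSTM1 were the other autophagy genes. The autophagy count fell from 8 to 2 under each other scaling and after removal of the length trend, and to 0 without either SA5 library; the membrane count fell to 3 or 4 and to 1. Lysosomal enzymes held 1 higher (GLA) and 1 lower (MAN2B1) of 44, and V-ATPase subunits 1 lower (ATP6V0E1) of 20. Over the 991 times, where 28.9% of all genes were called lower, the lower counts were 15 of 28 for MiT/TFE targets, 15 of 36 for membrane proteins, 22 of 44 for enzymes and 19 of 45 for autophagy. Without the 8 h replicate 1, where 35.5% of all genes were lower, they were 17, 16, 24 and 22.

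The promoter sequences of these genes can be set beside their values. RefSeq promoters (GRCh38.p14, 250 bases before to 50 after the start) were matched to 9680 of the 12353 genes, and the CLEAR core TCACGTGA, the palindromic site bound by TFEB and TFE3, was searched on both strands. It lies in 2.10% of all matched promoters, in 4 of 19 of the tested MiT/TFE list, and in 1 of 10 of the folliculin list, that of RRAGB. These 5 genes were all called lower over the 991 times, as were 15 of 28 MiT/TFE list members and 28.9% of all genes. They are shown with the core in capitals, on each gene's own strand.
MCOLN1 (chr19:7522571-7522600, + strand): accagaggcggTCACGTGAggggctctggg
CTSA (chr20:45891298-45891327, + strand): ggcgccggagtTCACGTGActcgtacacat
LAMP1 (chr13:113297199-113297228, + strand): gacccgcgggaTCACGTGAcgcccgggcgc
ATP6V0D1 (chr16:67481199-67481228, - strand): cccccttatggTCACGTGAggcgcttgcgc
RRAGB (chrX:55717712-55717741, + strand): ggtagcggcagTCACGTGAcagactccggg
The core starts 26 to 60 bases before the gene start in these windows, and MCOLN1 and LAMP1 hold a second copy. Under DMSO, of these genes only MCOLN1 was called, and the differences of CTSA, LAMP1, ATP6V0D1 and RRAGB were -0.18, -0.10, -0.07 and -0.16 (limma adjusted p = 0.097, 0.278, 0.361 and 0.289). Over the 991 times the 5 differences ran from -0.10 to -0.23. Among genes lower in both sets of libraries the core was in 1.95% of 616 promoters, close to the share in all.
The sterol element core TCACNCCAC, bound by SREBP, lies in 0.992% of all promoters and in 1 of 20 promoters of the cholesterol list, that of SREBF2. This gene encodes one of the SREBP factors. It was called higher under DMSO (0.22, limma adjusted p = 0.0328) but not over the 24 libraries given 991 (0.09, limma adjusted p = 0.192).
SREBF2 (chr22:41832962-41832991, + strand): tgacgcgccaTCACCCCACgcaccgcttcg
A match is a description of the sequence, and no match says only that these letters are not in the window.

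Amino acid response genes were mostly higher where called. In the integrated stress response list, 6 of 40 were called higher and 2 lower (2.57% and 6.90% of all genes), with a median of 0.07. ATF4, the transcription factor gene of this response, was at 701 and 665 against 548, 590 and 574 TPM (0.26 ± 0.04, limma adjusted p = 0.011). ASNS, the asparagine synthetase gene, was at 71.5 and 71.9 against 57.4, 55.7 and 52.7 TPM (0.37 ± 0.04, adjusted p = 0.00503). PYCR1, a proline synthesis gene, was at 60.1 and 59.03 against 49.8, 51.1 and 48.3 TPM (0.26 ± 0.04, adjusted p = 0.0129). All 3 were above WT in both SA5 libraries, as the choice required. DDIT4, PSAT1 and SARS were the other genes called higher. The stress genes ATF3 and PPP1R15A went the other way, PPP1R15A at 16.9 and 16.3 against 20.5, 21.3 and 19.98 TPM (-0.29 ± 0.05). All 8 kept their sign and call over the 991 times, where 22 of 40 were higher and 4 lower (10.4% and 28.9% of all genes), or 28 and 5 without the 8 h replicate 1 (14.5% and 35.5%). Under DMSO the list held 11 higher and 2 lower members after median-ratio scaling, 5 and 2 after quantile normalization, and 0 or 1 called member without SA5 replicate 3 or 2.

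Cell cycle and mitochondrial genes differed in small numbers. CDKN1A, the p53 target that inhibits cyclin-dependent kinases, was at 49.5 and 44.2 TPM in SA5 against 82.6, 83.02 and 84.2 TPM in WT (1.78-fold higher in WT; -0.82 ± 0.05, limma adjusted p = 0.000259). It was the only p53 target called of 23. Its 991 libraries did not overlap either, at 47.01 to 62.3 against 90.9 to 117 TPM, after a choice that used its call there. Of 32 G2/M genes, 5 were called lower (6.90% of all genes) and 0 higher, among them the topoisomerase gene TOP2A at 86.8 and 80.4 against 111, 111 and 109 TPM (-0.40 ± 0.04, adjusted p = 0.00272), and 30 of 32 lay below 0, as did 8122 of all 12353 genes; without either SA5 library 1 was called. Of 32 DNA replication genes none was called by limma under DMSO (6 at an unadjusted p under 0.05), 2 were after median-ratio scaling and 3 after removal of the length trend. Of 75 nuclear-encoded subunits of oxidative phosphorylation, 5 were called higher (2.57% of all genes) and 0 lower with a median of 0.01: COX7C, CYC1, ATP5G2, NDUFA7 and ATP5D, from 0.14 to 0.23. The listed transcripts of this group are short, with a median of 797 bases. Under other scalings 4 to 8 were called, all higher except 1 lower after quantile normalization, but none without either SA5 library. Of 11 AMPK subunit and upstream kinase genes tested none was called by limma under DMSO (2 at an unadjusted p under 0.05), under any of these scalings or without any 1 library.

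The differences seen under DMSO persisted after 991 was added. No library is shared between the 2 comparisons, although the cells come from the same 2 arms. Over the 24 libraries given 991, with time as a factor, 4849 of 12353 genes were called (39.3%), and 6180 (50%; 14.5% higher and 35.5% lower) without the 8 h replicate 1. Of the 1170 genes called under DMSO, 1142 had the same sign over the 991 times (97.6%, against 78.3% of all genes), 1009 were also called with that sign (272 higher, 737 lower), 4 were called with the opposite sign, and 157 were not called. Without the 8 h replicate 1, 1062 were called with the same sign and 5 with the opposite sign. The differences were smaller there than under DMSO, where the genes had been chosen. The median of genes called lower was -0.22 against -0.30 under DMSO, and of those called higher 0.20 against 0.25. At 16 h these medians were -0.19 and 0.19. At single times, the same sign was seen in 97.2% at 2 h, 97.2% at 4 h, 93.2% at 8 h (95.9% without the outlying library) and 94.2% at 16 h. Of all genes, 76.5%, 76.7%, 72.2% (75.7%) and 71.3% had it. It was kept at all 4 times by 1021 of the 1170. Also called with the same sign were 630 of the 1170 at 2 h, 813 at 4 h and 464 at 16 h. At 8 h these were 17, or 720 without the outlying library. At 2 h 1318 genes were called (10.7%; 2.63% higher and 8.04% lower) and at 4 h 2611 (21.1%; 5.56% and 15.6%). At 8 h limma called 17 (0.138%; 0.0405% higher and 0.0971% lower; 1475 at an unadjusted p under 0.05), and without the outlying library 1910 (15.5%; 4.59% and 10.9%). At 16 h 953 were called (7.71%; 2.83% and 4.89%). Short entries behaved differently: of 56 called entries under 200 bases only 9 were called with the same sign over 991, against 1000 of 1114 longer ones.

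**Figure D4:**
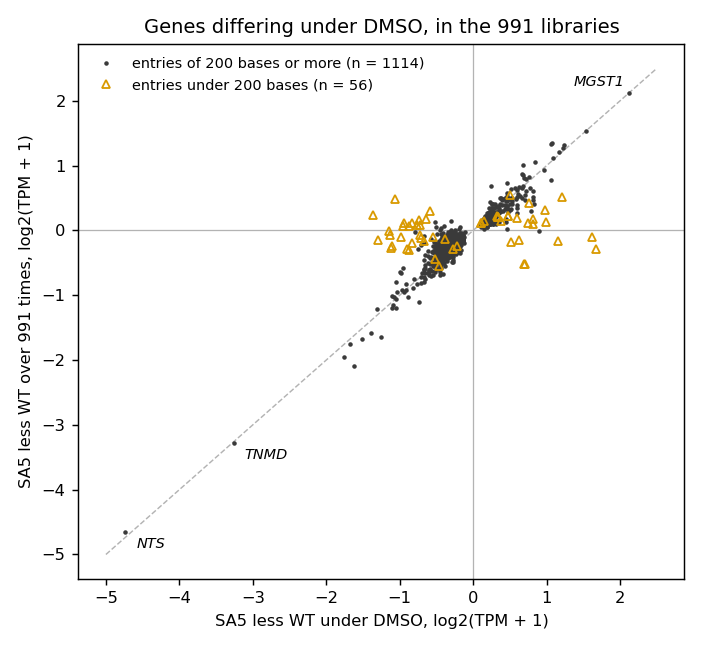
Difference under DMSO (x axis) and over the 991 times without the 8 h replicate 1 (y axis), both SA5 less WT in log2(TPM + 1), for the 1170 genes called under DMSO; the dashed line marks equal values. Genes of 200 bases or more run from NTS to MGST1, and entries under 200 bases (triangles) scatter around 0 on the y axis. The median of genes called lower was -0.30 on the x axis and -0.22 on the y axis. For genes called higher it was 0.25 and 0.20.

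For CDKN1A and 4 of the genes farthest apart, which were chosen partly by their call under 991, the size of the difference there is given as a description. NTS had a difference of -4.64 over the 991 times, TNMD of -3.30, CDKN1A of -0.88, MGST1 of 2.13 and OXCT1 of 1.45, and without the 8 h replicate 1 of -4.65, -3.28, -0.89, 2.13 and 1.53. A test of the 991 difference less the DMSO difference over 29 libraries called 1 gene (0.00810%; 311 genes at an unadjusted p under 0.05), and none of the 1170. That gene was CHAC1, a glutathione-degrading enzyme gene of the integrated stress response that was not called under DMSO. With the 8 h replicate 1 left out as well, OXNAD1 also passed (2 called, 1 of them among the 1170). With 2 SA5 libraries under DMSO this test sees only large changes of a difference.

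Control cells of the other experiments give a further view of the levels in both arms, with the limit that each table was normalized separately and no test was made. NTS stood at 0.974 ± 0.195 TPM (SD, n = 3) in the WT cells of the AMPK table and at 0.784 ± 0.261 TPM (n = 3) in those of the TFEB and TFE3 table, near its SA5 level, and at 29.2 ± 4.77 and 17.5 ± 0.613 TPM (n = 3 each) in the ESRRA WT and control siRNA groups, nearer its WT FNIP1 level. MGST1 was at 76.001 ± 3.75 and 61.7 ± 1.99 TPM (n = 3 each) in the first 2 groups, above both arms, and at 0.543 ± 0.110 and 0.917 ± 0.476 TPM (n = 3 each) in the other 2. OXCT1 was at 3.71 ± 0.172, 6.66 ± 0.0429, 1.07 ± 0.122 and 1.04 ± 0.244 TPM (n = 3 each) in the same order. Of the 1009 persistent genes with the same listed transcript, the group mean lay closer to SA5 than to WT FNIP1 cells for 561 of 889 in the AMPK WT group, 631 of 935 in the TFEB and TFE3 WT group, 280 of 935 in the ESRRA WT group and 518 of 953 in the control siRNA group. Among those with at least a 2-fold difference the counts were 16 of 21, 19 of 21, 0 of 22 and 3 of 24. Which of these cells the FNIP1 arms were derived from is not stated in the labels, and differences set by the SA5 form and differences between the 2 cell populations cannot be told apart.

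Called genes were unevenly spread over the chromosomes, where 6.90% of all genes were called lower and 2.57% higher. On chromosome 1, 211 of 1265 genes tested were lower and 27 higher, with a median of -0.11, and on its long arm 136 of 539 were lower and 3 higher (median -0.16). On chromosome 17, 98 of 753 were lower and 11 higher (median -0.11), and on chromosome X 47 of 417 were lower and 13 higher. Chromosome 11 went the other way, with 41 of 673 higher, 15 lower and a median of 0.03. The medians over the 991 times without the 8 h replicate 1 were -0.10 for chromosomes 1 and 17 and 0.04 for chromosome 11. Transcript length moved with the difference too, with rho = -0.21 across the 12353 genes. Of 3600 genes over 4000 bases 265 were called lower and 21 higher, and of 993 from 200 to 1000 bases 44 lower and 72 higher. The part of either in the gene group differences was not tested.

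**Figure D5:**
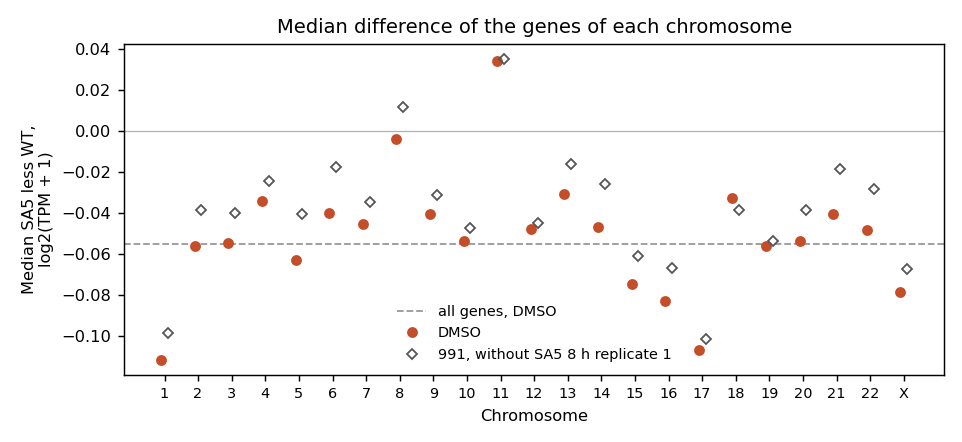
Median difference of the tested genes of each chromosome, SA5 less WT in log2(TPM + 1), under DMSO (circles) and over the 991 times without the 8 h replicate 1 (diamonds), with the median of all genes under DMSO as a dashed line. Chromosomes 1 and 17 lie lowest and chromosome 11 highest in both.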

How the data were processed

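Polyadenylated RNA was sequenced. Per the submitters' processing notes, FastQC, STAR and HOMER were used with GRCh38 (versions not given in the sources used here); TPM were made by the authors and deposited in 5 tables normalized separately, 1 listed transcript per gene. Libraries were grouped by their labels, in 80 groups of 3. Of 27234 genes, the 12353 that reached 1 TPM in 2 or more of the 5 libraries were tested as log2(TPM + 1) with limma 3.58.1 (trend, Benjamini-Hochberg, adjusted p under 0.05) in R 4.3.3. Separate fits covered the 24 libraries given 991 with time as a factor, each time, and the change of the difference in 29 libraries. The tests were checked on simulated data. The members, the 34 gene lists and the libraries left out were chosen with earlier results of these data known; lists are described by counts and medians without a test. Named were the folliculin list, the 12 highest and 12 lowest differences, and up to 3 higher and 3 lower members per list. Apart from the folliculin list, these were taken from genes called with the same sign under DMSO and 991. Their SA5 replicates 2 and 3 also had to lie outside the WT range under DMSO. Other called list members are named for completeness, and CHAC1 and OXNAD1 after their values were seen. Some members of the lists are counted but not reported here by name. Alternatives covered scaling, pseudocount, filters, libraries included and the replicate number; removal of the length trend, of entries under 200 bases, and leaving out libraries for list counts were added after seeing the data. Depth is unknown; the TPM column totals ran from 410713 to 449208, so listed genes hold part of each library. Promoters and coordinates are from RefSeq (GRCh38.p14) and the deposited table (GRCh38). Python 3.11.15 with matplotlib 3.10.9 made the plots.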

Additional observations from a re-analysis of the deposited data

Results flagged for a closer look

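CHAC1, which encodes a glutathione-degrading enzyme, is listed here because its arm difference under 991 differed from that under DMSO, by 0.78 ± 0.11 on the log2(TPM + 1) scale (limma adjusted p = 0.00404 over 29 libraries). Under DMSO it stood at 3.86 and 3.61 TPM in SA5 replicates 2 and 3 and at 4.56, 3.66 and 4.15 TPM in WT libraries (-0.11 ± 0.09, adjusted p = 0.486). At 16 h of 991 it stood at 11.6, 13.2 and 13.4 TPM in SA5 and at 6.65, 7.37 and 7.55 TPM in WT libraries. SA5 was above WT at each of the 4 times, by 0.67, 0.57, 0.71 and 0.74. No call was made without replicate 2 or without replicate 3 of every group. Groups of 3 libraries are too small for a check of single libraries.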

How the results depend on the processing

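The count of 1170 genes under DMSO was 2 with all 3 SA5 libraries, 417 and 1813 with 1 mean per group over 29 and 28 libraries, 399 with no filter on low values, 678 after quantile normalization and 134 to 641 when each library in turn was left out. A pseudocount of 0.1, a minimum of 5 TPM, median-ratio scaling and, chosen after seeing the data, removal of the length trend and of entries under 200 bases kept it within 1.5 times. At 8 h of 991 the count of 17 was 1910 without the outlying SA5 library and 39 after quantile normalization. With each replicate number left out, counts ran from 2479 to 5178 over the 991 times, 84 to 960 at 2 h, 316 to 1193 at 4 h, 0 to 916 at 8 h and 79 to 395 at 16 h. The test of a changed difference called 2 genes over 28 libraries and 2 after quantile normalization, and 0 to 3 with a replicate number left out (limma; 311 at an unadjusted p under 0.05 over 29 libraries, 685 over 28).

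Replicate numbers are shared between groups but do not pair the libraries: deviations of same-numbered libraries correlated between -0.13 and 0.13. With the number as a block, the counts were 260 under DMSO, 430 at 2 h, 1738 at 4 h, 2 at 8 h and 334 at 16 h; the other counts with the block stayed within 1.5 times.

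With all 3 SA5 libraries the sign of 9 named genes turned: FLCN (-1.67), LAMTOR1 (0.20), LAMTOR2 (0.33), LAMTOR4 (0.55), CD63 (0.064), LDHA (-0.094), MYC (-0.11), HOXC10 (-0.23) and FTL (0.12). LAMTOR3 turned after median-ratio scaling (0.031), quantile normalization (0.039) and removal of the length trend (0.053), LAMTOR4 after median-ratio scaling (0.028) and FLCN after quantile normalization (-0.022); none of these 3 was called. With a library left out, LAMTOR2 ran from -0.17 to 0.0066 and LAMTOR3 from -0.13 to 0.078. The causes were not tested.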

Other observations

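The values of some further gene groups follow. The clustered protocadherins, adhesion genes of neurons, were called in no case by limma under DMSO (0 of 22, and 0 at an unadjusted p under 0.05). All 22 lay below 0 there, as did 8122 of all 12353 genes. All 22 were called lower over the 991 times with and without the 8 h replicate 1 of SA5 (28.9% and 35.5% of all genes). Their medians were -0.17 under DMSO and -0.24 over 991. Their listed transcripts have a median length of 4599 bases and share exons, so reads between them may be divided uncertainly. Of 24 genes of the BMP and TGF-beta pathway 2 were called lower, a share near the 6.90% of all genes: BMP2, a secreted growth factor gene, at 2.18 and 2.06 against 5.83, 5.35 and 5.27 TPM (-1.05 ± 0.08, limma adjusted p = 0.000805), and SMAD3 (-0.43). Of 9 imprinted genes tested 3 were called lower (6.90% of all genes), with IGF2, a fetal growth factor gene, at 2.41 and 2.60 against 5.97, 5.32 and 5.91 TPM (-0.94 ± 0.08, adjusted p = 0.00158).

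HMOX1, the haem oxygenase gene, was at 24.3 and 25.1 TPM in SA5 against 38.8, 35.8 and 35.6 TPM in WT (-0.55 ± 0.05, limma adjusted p = 0.00204). Its 991 libraries did not overlap, after a choice that used its call there. TXNIP, a regulator of glucose uptake, was at 8.25 and 8.07 against 11.2, 11.97 and 11.6 TPM (-0.46 ± 0.06, adjusted p = 0.0061). KRT8, a keratin gene among the markers of the HEK line, was at 18.7 and 21.6 against 30.4, 30.4 and 30.5 TPM (-0.58 ± 0.06, adjusted p = 0.00299). Of the 8 markers of that line tested, 4 were called lower and 1, EYA1, higher (6.90% and 2.57% of all genes). NEFM, a marker too low to be tested, was at 1.10 and 0.542 against 0.032, 0.033 and 0 TPM. Of 20 Wnt pathway genes none was called by limma under DMSO (6 at an unadjusted p under 0.05, all lower) and 11 were called lower over the 991 times, or 12 without the 8 h replicate 1 (28.9% and 35.5% of all genes); whether these differences changed with 991 was covered by the test over 29 libraries, which called none of them.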
